A study of Mus musculus with 8 samples.

Results

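Transcripts of the glycolytic enzymes and of the lactate dehydrogenases were compared in hippocampus between wild-type mice and mice with both copies of Wfs1 mutated (the strain label is Wfs1tm1Koks for both groups). The Wfs1 product, wolframin, sits in the membrane of the endoplasmic reticulum. The members were the 10 genes Hk1, Gpi1, Pfkm, Aldoa, Tpi1, Gapdh, Pgk1, Eno2, Ldha and Ldhb, taken by exact match of the gene symbol, and all 10 were found among the 24078 entries of the count table. They were set apart as the cytosolic counterpart of the mitochondrial energy genes. Each genotype had 4 animals, numbered 7 to 10 for wild-type and 15 to 18 for homozygous, with 1 library of whole hippocampal RNA per animal. The labels used here give no age, sex or litter. In whole tissue, fewer cells of a type and less RNA per cell cannot be told apart.

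Glycolysis splits glucose into pyruvate in the cytosol and yields ATP and NADH without oxygen. Hexokinase, phosphoglucose isomerase and phosphofructokinase prepare the sugar. Aldolase and triosephosphate isomerase make the triose phosphates, and glyceraldehyde-3-phosphate dehydrogenase, phosphoglycerate kinase, phosphoglycerate mutase, enolase and pyruvate kinase recover the energy. Lactate dehydrogenase is a tetramer of A and B subunits that interconverts pyruvate and lactate. In brain, astrocytes are known for releasing lactate and neurons for oxidising it, and both use the mitochondria to burn pyruvate.

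All 10 genes are protein-coding and lie at known places on mm10 (GENCODE release M21). Hk1 is on chromosome 10 (62268855 to 62379908, minus strand), Gpi1 on chromosome 7 (34201330 to 34230336, minus) and Pfkm on chromosome 15 (98092589 to 98132451, plus). Aldoa is on chromosome 7 (126795234 to 126800751, minus) and Ldha on the same chromosome (46841475 to 46855627, plus). Chromosome 6 carries 4 of them on its minus strand: Eno2 (124760053 to 124769673), Tpi1 (124810586 to 124814296), Gapdh (125161715 to 125166467) and Ldhb (142490249 to 142507957). Pgk1 is on chromosome X (106187100 to 106203699, plus).

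Many genes of this pathway are known targets of hypoxia-inducible factor (HIF), which binds a core of ACGTG or GCGTG, and of factors that bind the E-box CACGTG. RefSeq start sites on build GRCm38.p6 gave 17 windows for the 10 members, and the 250 bases before each start were searched on both strands. An HIF core was found in 11 of the 17 windows (64.7%), against 38.6% of 32851 windows of all genes (16.6% for ACGTG and 28.2% for GCGTG). At least 1 window of 7 of the 10 genes held a core. No such share per gene was computed over all genes, and a gene with several windows has more chances to match. The GC content was not matched: member windows ran from 36.4% to 67.6%, where the median of all windows was 52.4%. Windows of 1 gene can overlap and then share a match. The E-box contains ACGTG on both strands, so each CACGTG counts as 2 overlapping matches, and it was found in 6.02% of all windows. The windows of 5 genes are shown to set those with a core (both lactate dehydrogenase genes, Aldoa and Pgk1) beside one without (Eno2). Ldha has 2 windows and Aldoa 3, of which 1 each, chosen for its matches, is shown. The other Ldha window holds 1 match, and the bases that follow it lie in an annotated GENCODE transcript of Ldha, which was not found for the one shown. Of the other Aldoa windows 1 holds 1 match and 1 holds 0. Capitals mark every match to ACGTG or GCGTG on either strand, each sequence reads 5′ to 3′ on the gene's own strand, and a match is a description of letters, not a bound site.
Ldha, chr7:46845554-46845803, plus strand: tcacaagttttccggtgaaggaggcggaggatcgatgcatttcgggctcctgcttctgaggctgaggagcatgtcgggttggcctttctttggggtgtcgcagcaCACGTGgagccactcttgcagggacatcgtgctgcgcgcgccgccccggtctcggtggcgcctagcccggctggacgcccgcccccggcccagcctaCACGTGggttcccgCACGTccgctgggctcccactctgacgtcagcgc
Ldhb, chr6:142507958-142508207, minus strand: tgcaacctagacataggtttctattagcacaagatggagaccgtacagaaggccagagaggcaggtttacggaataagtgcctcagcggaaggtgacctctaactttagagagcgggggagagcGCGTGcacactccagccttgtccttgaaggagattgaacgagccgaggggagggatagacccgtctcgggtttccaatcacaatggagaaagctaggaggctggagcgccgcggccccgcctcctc
Aldoa, chr7:126799255-126799504, minus strand: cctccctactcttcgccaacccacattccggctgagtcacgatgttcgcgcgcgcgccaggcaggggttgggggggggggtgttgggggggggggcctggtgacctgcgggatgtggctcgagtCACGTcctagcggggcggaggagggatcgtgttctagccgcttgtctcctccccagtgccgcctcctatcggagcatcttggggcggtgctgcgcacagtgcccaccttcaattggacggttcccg
Pgk1, chrX:106186850-106187099, plus strand: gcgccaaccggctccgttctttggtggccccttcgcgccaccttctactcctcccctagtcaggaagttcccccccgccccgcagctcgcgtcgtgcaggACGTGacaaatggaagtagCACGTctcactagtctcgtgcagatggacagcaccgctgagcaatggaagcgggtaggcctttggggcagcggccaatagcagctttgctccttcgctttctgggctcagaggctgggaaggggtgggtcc
Eno2, chr6:124769674-124769923, minus strand: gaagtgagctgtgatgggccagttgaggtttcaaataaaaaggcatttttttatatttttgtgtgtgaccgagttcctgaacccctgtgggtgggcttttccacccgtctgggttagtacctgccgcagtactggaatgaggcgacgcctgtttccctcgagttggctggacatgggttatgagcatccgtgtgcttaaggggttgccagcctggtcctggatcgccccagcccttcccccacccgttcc
The Ldha window holds 5 matches, 4 of them from 2 E-boxes, the nearest match beginning 34 bases before the start site. Ldhb, whose product is the other lactate dehydrogenase subunit, holds 1 match, a GCGTG 126 bases before the start. The window of Pgk1 holds 2 matches and that of Aldoa 1, while that of Eno2, the neuronal enolase gene, holds none. It holds 1 TATAAA, as 12.4% of all windows hold at least one.

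All 10 genes fell in homozygous hippocampus and none rose, by the quasi-likelihood test of edgeR over 20478 genes (Benjamini-Hochberg threshold 0.05). Over all genes tested 20.4% were called lower and 20.7% higher. The 4 homozygous values lay below the 4 wild-type values for each of the 10 genes, as they did for 18.8% of all genes, and 18.8% were apart in the other direction. Their median log2 fold change was -0.71, where that of all genes was 0.05. Abundant transcripts fell more often in these libraries: in the highest of 10 equal bins of mean level, which holds 8 of the 10 members, 55.1% of genes were called lower, 12.6% higher and 51.4% had non-overlapping lower values, and the median log2 fold change was -0.46. Ldha is in the next bin, where these shares were 34.8%, 16.5% and 32.8%. Gapdh is in the second lowest bin, whose median was 0.26.

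**Figure D1:**
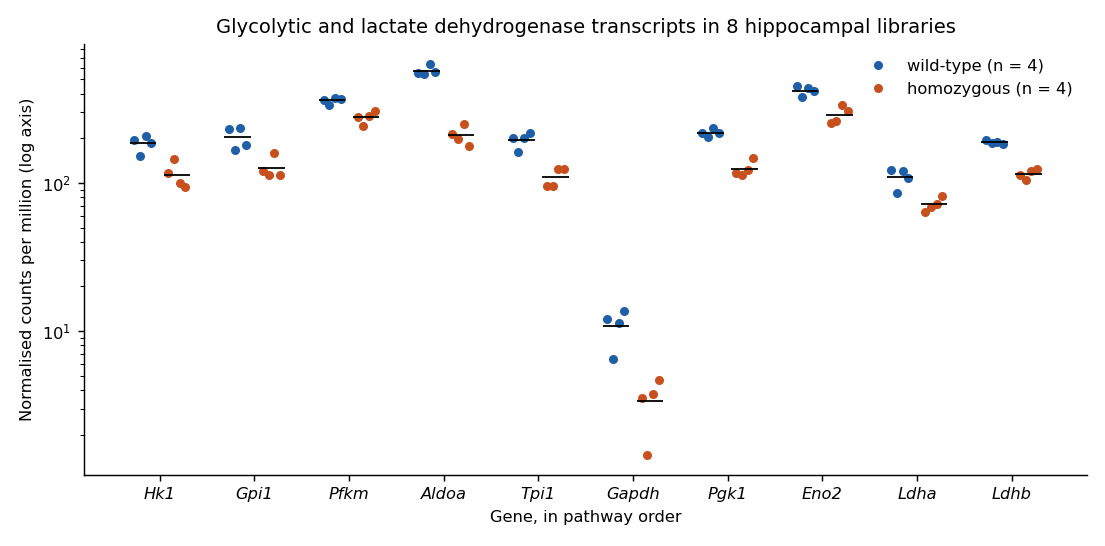
Normalised CPM (log axis) of the 10 genes in pathway order, 1 point per library, 4 wild-type (blue) and 4 homozygous (orange), with black bars at the mean. The orange points lie below the blue points for every gene, and Gapdh stands at 1.45 to 13.7 where the other genes stand above 60.

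Hk1 encodes the hexokinase typical of brain, which binds mitochondria and commits glucose to the cell. Wild-type replicates 7, 8, 9 and 10 had 195, 153, 209 and 186 CPM (read counts relative to library size, scaled with TMM factors). Homozygous replicates 15, 16, 17 and 18 had 116, 146, 100.04 and 93.9 CPM. The groups did not overlap, but homozygous replicate 16 came close to wild-type replicate 8. The wild-type mean was 186 ± 23.8 and the homozygous mean 114 ± 23.3 CPM (SD, n = 4 each), with a log2 fold change of -0.70 (SE 0.16, adjusted p 0.00600, edgeR).

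Gpi1 encodes phosphoglucose isomerase. Its level was 230, 167, 234 and 181 CPM in the wild-type libraries, in the same order, and 120, 113, 160 and 114 CPM in the homozygous ones. Homozygous replicate 17 stood above the other 3 and just under the lowest wild-type library. The log2 fold change was -0.68 (SE 0.16, adjusted p 0.00719, edgeR).

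Pfkm encodes the muscle-type subunit of phosphofructokinase, the main control point of the pathway, and showed the smallest difference of the 10. The wild-type libraries had 366, 337, 374 and 368 CPM and the homozygous ones 280, 244, 284 and 304 CPM, with no overlap. The mean in homozygous libraries was 77.0% of that in wild-type, a log2 fold change of -0.38 (SE 0.13, adjusted p 0.0338, edgeR). The Pfkm call depended on single libraries: it was lost without wild-type replicate 7, 9 or 10 and without homozygous replicate 15 or 16 (adjusted p 0.0631 to 0.0882, edgeR).

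Aldoa, the aldolase A gene, was the member with the highest CPM in wild-type libraries, though not in homozygous ones, and fell the most among the abundant members. Its values were 549, 543, 640 and 557 CPM in wild-type and 213, 199, 249 and 177 CPM in homozygous libraries. The highest homozygous value was thus less than the lowest wild-type value by a wide margin. The homozygous mean of 209 ± 30.3 CPM was 36.6% of the wild-type mean of 572 ± 45.3 CPM (SD, n = 4 each), with a log2 fold change of -1.45 (SE 0.15, adjusted p 6.34e-05, edgeR).

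Tpi1, the triosephosphate isomerase gene, went from 200, 163, 202 and 216 CPM in wild-type to 94.9, 95.3, 124 and 124 CPM in homozygous libraries. Pgk1, the X-linked phosphoglycerate kinase gene, went from 216, 206, 233 and 218 CPM to 117, 113, 123 and 147 CPM. In both the groups were apart, with homozygous means at 56.1% and 57.2% of wild-type. The log2 fold change was -0.84 for Tpi1 (SE 0.15, adjusted p 0.00144, edgeR) and -0.81 for Pgk1 (SE 0.13, adjusted p 0.000789, edgeR).

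Gapdh, the glyceraldehyde-3-phosphate dehydrogenase gene, is often used as a reference gene of steady level. In this table it was rare: 56, 19, 71 and 65 reads were counted in wild-type replicates 7 to 10 and 20, 5, 13 and 16 in homozygous replicates 15 to 18. That is 6.44 to 13.7 CPM against 1.45 to 4.70 CPM. Every homozygous library was below every wild-type library, and the log2 fold change was -1.71 (SE 0.31, adjusted p 0.00159, edgeR). The spread was the widest of the 10 genes, with an SD of 28.6% of the mean in wild-type and 40.7% in homozygous libraries.

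The principal Gapdh mRNA has near-identical copies in the genome. Of its 1371 windows of 50 bases, the length of the longer read, 85.0% also matched, with at most 2 mismatches, an annotated transcript of another gene, and 337 of the 387 genes matched were pseudogenes. The same share was 68.4% for Pgk1, 66.9% for Ldhb, 58.5% for Aldoa, 50.7% for Ldha, 50.4% for Gpi1 and 31.3% for Tpi1. The share was 1.53% for Eno2 and 0 of 3802 and 0 of 2830 windows for Hk1 and Pfkm. No source used here says how reads that match several places were counted, so the levels of the 7 genes with many shared windows are uncertain, and the part of such reads in the results was not tested.

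Both aldolase A retrogenes are in the table and were looked at after their values were seen. Aldoart2, at 19.0 CPM in wild-type and 13.7 CPM in homozygous libraries on average, did not pass (log2 fold change -0.48, adjusted p 0.0568, edgeR). Aldoart1, an intronless aldolase A retrogene, shared 32.0% of its windows with other genes, 24.9% with Aldoa. Its range was 101 to 140 CPM among wild-type and 40.8 to 61.9 CPM among homozygous libraries, with means at 20.3% and 25.2% of those of Aldoa. Its log2 fold change was -1.14 (SE 0.16, adjusted p 0.000359, edgeR). Reads of Aldoa and Aldoart1 cannot be told apart where their sequences are alike.

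Eno2 encodes the gamma enolase of neurons and is widely used as a neuronal marker. Wild-type libraries had 449, 381, 435 and 415 CPM, and homozygous libraries 255, 263, 335 and 305 CPM. No values overlapped, and the mean fell to 68.9% of wild-type (log2 fold change -0.54, SE 0.14, adjusted p 0.0106, edgeR).

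Ldha encodes the A subunit of lactate dehydrogenase, which favours lactate formation, and Ldhb the B subunit, which favours lactate use. The Ldha values were 121, 86.1, 121 and 108 CPM in wild-type libraries, against 63.8, 68.8, 72.6 and 82.2 CPM in homozygous ones. The Ldhb values were 196, 186, 190 and 183 CPM, against 113, 105, 121 and 125 CPM. Ldhb was the steadiest member, with an SD of 2.98% of the mean in wild-type and 7.84% in homozygous libraries, while for Ldha wild-type replicate 8 came close to the highest homozygous value. Neither gene overlapped between genotypes. The log2 fold changes were -0.61 for Ldha (SE 0.14, adjusted p 0.00624, edgeR) and -0.71 for Ldhb (SE 0.11, adjusted p 0.000934, edgeR).

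Levels of different genes were compared per kilobase of the principal mRNA. In wild-type libraries Aldoa stood first, at 379 ± 29.97 CPM per kilobase (SD, n = 4). Eno2 (150 ± 10.6) and Ldhb (145 ± 4.31) followed, then Pfkm (125 ± 5.73), Tpi1 (121 ± 14.2) and Pgk1 (120 ± 6.19). The library ranges of Eno2 and Ldhb overlapped, as did those of Pfkm, Tpi1 and Pgk1. Gpi1 (70.4 ± 11.8), Ldha (61.8 ± 9.38) and Hk1 (48.2 ± 6.18) came next, each overlapping its neighbour, and Gapdh was last at 7.66 ± 2.19. In homozygous libraries Aldoa (139 ± 20.04) was still highest, but its lowest library, at 117, was under the highest Eno2 library, at 120. Pfkm (96.5 ± 8.75) and Ldhb (88.8 ± 6.96) overlapped there.

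Among wild-type libraries 9 of the 10 genes were lowest in replicate 8, and the exception, Ldhb, was lowest in replicate 10. In homozygous libraries 5 genes were lowest in replicate 16, 3 in replicate 15 and 2 in replicate 18. The members together made up 0.199% to 0.245% of all counts in the 4 wild-type libraries, against 0.143% to 0.167% in the 4 homozygous ones, and without wild-type replicate 8 their median log2 fold change was -0.79.

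The calls of several genes, and the direction of Pfkm and Eno2, depended on the scaling. With library totals in place of TMM factors, which moved the median of all genes to 0.25, 8 of the 10 genes passed, all lower (of all genes 11.8% were lower and 32.4% higher), and neither Pfkm (-0.18, adjusted p 0.293, edgeR) nor Eno2 (-0.34, adjusted p 0.0696, edgeR) did. A smooth trend on abundance was also taken out of each library before the test. With it removed 6 passed, all lower: Aldoa, Tpi1, Gapdh, Pgk1, Ldha and Ldhb. Of all genes 18.2% were then lower and 16.9% higher. When the trend was taken on counts per kilobase of exon (the density trend), 3 passed, all lower, where 18.7% were lower and 15.6% higher: Hk1, Aldoa and Gapdh. Aldoa was then -0.86 (adjusted p 0.00150, edgeR) and Gapdh -1.93 (adjusted p 0.00126, edgeR), and both were called in all 16 alternative fits. Hk1 passed narrowly (-0.46, adjusted p 0.0474, edgeR) and Tpi1 did not (-0.35, adjusted p 0.0596, edgeR). Pfkm turned to 0.10 and 0.21 in the trend fits and Eno2 to -0.04 and 0.015, with no call.

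**Figure D2:**
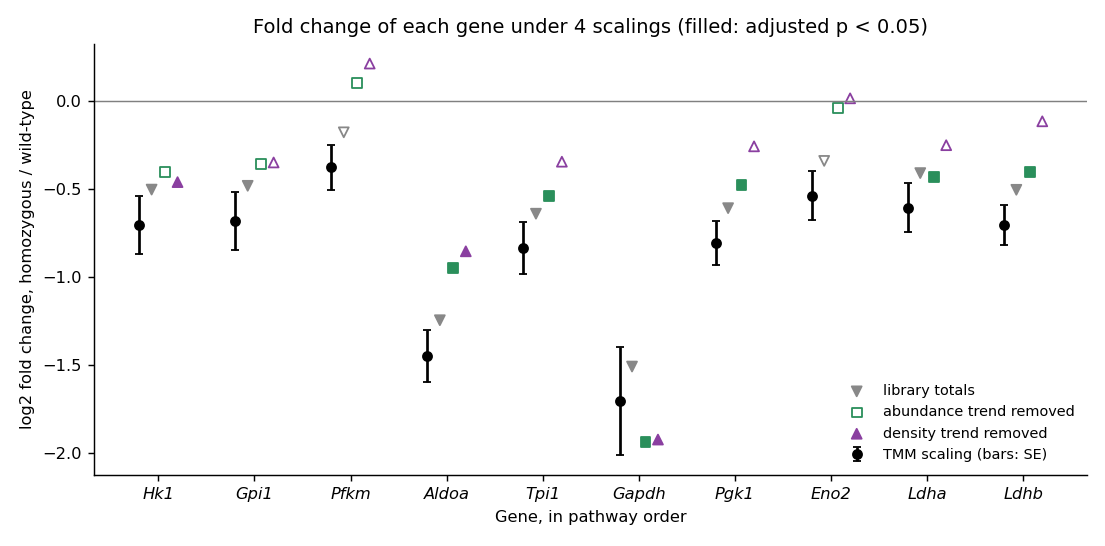
Log2 fold change (homozygous over wild-type) of the 10 genes with TMM scaling (black, bars are SE), library totals (grey), and the trend on abundance (green) or on counts per kilobase of exon (purple) removed; filled symbols passed an adjusted p of 0.05. Aldoa and Gapdh keep filled symbols throughout, while Pfkm and Eno2 move to 0.10 and 0.21 and to -0.04 and 0.015 in the trend fits.

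**Figure D3:**
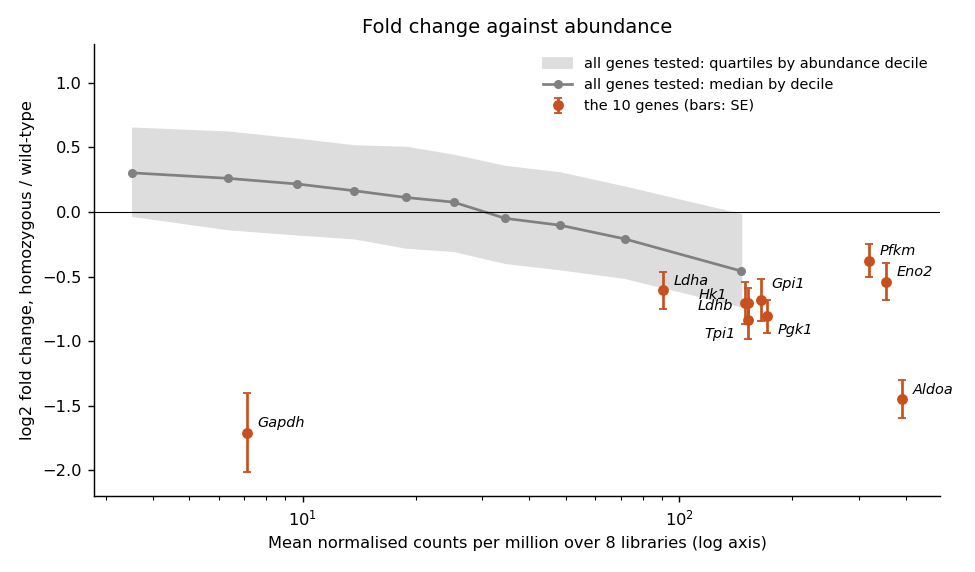
Log2 fold change of the 10 genes (orange, bars are SE) against mean normalised CPM (log axis), over the median and quartiles of all genes tested in 10 bins of abundance (grey). The grey median goes from 0.30 in the lowest bin to -0.46 in the highest, and Aldoa and Gapdh lie far under it.

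Enzymes with several genes were compared within libraries, since the ratio of 2 counts does not depend on library scaling. The ratio is of raw counts, not corrected for gene length, so only its change is read. For Eno2 to Eno1, the enolase gene of glia and most other cells, the wild-type ratios were 8.26, 8.44, 8.59 and 7.45 and the homozygous ones 14.6, 13.3, 10.3 and 22.1. For Aldoa to Aldoc, the aldolase gene known from astrocytes and Purkinje cells, they were 1.19, 1.48, 1.20 and 1.34 against 0.842, 0.841, 0.741 and 0.631. Eno2 to Eno1 was higher and Aldoa to Aldoc lower in every homozygous library than in any wild-type one. The exact permutation p was 0.0286 for each, the smallest that 4 against 4 libraries allow (two-sided), or 0.0714 when adjusted over the 5 pairs, which misses 0.05. The mean change was 0.82 on the log2 scale for Eno2 to Eno1 and -0.77 for Aldoa to Aldoc.

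The other 3 pairs overlapped between genotypes. Hk1 to Hk2, the hexokinase of muscle and fat that is also found in glia, had ratios of 3.85 to 5.71 in wild-type, against 1.81 to 4.79 in homozygous libraries (mean log2 change -0.90, exact permutation p 0.0571, adjusted 0.0952), and the change was -0.54 with the density trend removed. Ldha to Ldhb had ratios of 0.463 to 0.636 and 0.566 to 0.658, with mean log2 values of -0.80 ± 0.21 and -0.69 ± 0.11 (SD, n = 4 each, exact permutation p 0.429, adjusted 0.536). Pfkm to Pfkp, the platelet-type phosphofructokinase gene, had ratios of 2.13 to 2.60 and 1.77 to 2.49 (mean log2 change -0.06, exact permutation p 0.714). With the density trend removed both of these changes reversed in sign. They were then -0.13 for Ldha to Ldhb (adjusted exact permutation p 0.400) and 0.49 for Pfkm to Pfkp (adjusted 0.0476). Eno1 shared 85.5% of its windows with other genes, mostly with Eno1b, so its level is uncertain, whereas Aldoc and Pfkp shared 0 of 2737 and 0 of 4096 windows. Aldoa shared 58.5%, Ldha 50.7% and Ldhb 66.9%, so the ratios with these genes are uncertain too.

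**Figure D4:**
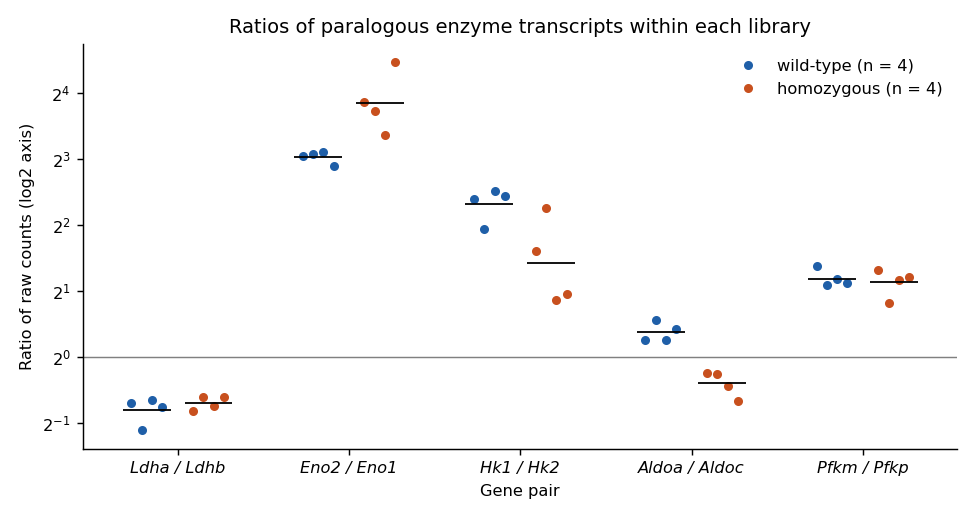
Ratio of raw counts of 2 genes for the same enzyme step (log2 axis) in each of the 4 wild-type (blue) and 4 homozygous (orange) libraries, with black bars at the geometric mean. The genotypes are apart for Eno2 to Eno1 and Aldoa to Aldoc and overlap for the other pairs.

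Of the other glycolytic genes, 22 in all, 5 fell and 2 rose, and the median log2 fold change was 0.15. Over all genes tested 20.4% were called lower and 20.7% higher. Those shares are to be set beside the counts of this list and of the lists that follow. Of those that fell, Pkm2, Pgam1, Aldoc and Pfkl are in the highest bin of abundance. Pkm2, the pyruvate kinase gene, went from 868 ± 45.1 to 448 ± 58.9 CPM (a change of -0.96 on the log2 scale, SE 0.15), and Pgam1, the phosphoglycerate mutase gene, from 354 ± 15.5 to 151 ± 10.7 CPM (-1.23, SE 0.12). Eno1 (-1.31, SE 0.22), Aldoc (-0.68) and Pfkl, the liver-type phosphofructokinase gene (-0.61), fell as well. Hk3, a hexokinase gene of blood cells, rose (0.75), as did Pklr, the pyruvate kinase gene of liver and red cells (0.54), from 10.5 and 10.1 CPM in wild-type. With either trend removed 3 of the 22 were called lower and none higher. Of all genes 18.2% were lower and 16.9% higher in the abundance fit, and 18.7% and 15.6% in the density fit. The 3 were Pgam1, Eno1 and Ldhd. Ldhd was not called with TMM scaling alone (-0.45, adjusted p 0.0990, edgeR) and was -0.62 and -0.64 in the trend fits. Hk3 (adjusted p 0.0786 and 0.0968 in the abundance and density fits, edgeR) and Pklr (0.143 and 0.173) lost their calls. Pkm2 (-0.36 and -0.33), Pfkl (-0.27 and -0.26) and Aldoc (-0.18 and -0.07) lost theirs too. Genes of other tissues such as Pgk2 (0.16), Gapdhs (0.50) and Ldhc (0.34) stood under 10 CPM in both genotypes and did not pass.

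The control enzyme that makes and breaks fructose 2,6-bisphosphate, an activator of phosphofructokinase, is encoded by the Pfkfb genes. Of 5 genes in that list none fell and Pfkfb2 rose, with means of 78.1 ± 13.3 and 118 ± 8.05 CPM. Its log2 fold change was 0.60 (SE 0.14, adjusted p 0.00650, edgeR). Pfkfb3, the form most tied to glycolytic flux in astrocytes, was -0.35 and did not pass (adjusted p 0.0664, edgeR).

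Of 12 transport genes 4 fell and 1 rose. Slc2a3, which encodes the neuronal glucose transporter, had means of 90.4 ± 9.23 and 55.8 ± 7.07 CPM (a log2 fold change of -0.70, SE 0.13), and Slc2a1, whose transporter serves the blood-brain barrier and glia, fell by 0.40 on the log2 scale. Bsg, whose product basigin carries lactate transporters to the membrane, fell as well (-0.84, SE 0.17), as did Slc2a13 (-0.58). The fall of Bsg was lost with the density trend removed (-0.25, adjusted p 0.261, edgeR). Of the lactate transporter genes Slc16a8 rose from 92.9 ± 19.0 to 158 ± 10.9 CPM (0.77, SE 0.16), while Slc16a1 (-0.03), Slc16a7 (-0.22) and Slc16a3 (0.19) did not pass. The product of Slc16a8 is known from retinal pigment epithelium and choroid plexus. The 8 choroid plexus and ependyma markers summed to 399 to 1315 CPM in wild-type, against 200 to 974 CPM in homozygous libraries, with 2 markers lower, Sostdc1 (-2.42) and Clic6 (-0.71), and none higher, and their part in the result was not tested.

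In the glycogen list 5 of 15 genes fell and none rose, among them Pygm, the muscle-type glycogen phosphorylase gene (log2 fold change -0.68, SE 0.13), Ugp2 (-0.44), Phkb (-0.41) and Pgm2l1, the most abundant (-0.49). In the pentose phosphate pathway 3 of 8 fell and 1 rose. G6pdx, the gene of its first enzyme, fell from 18.6 ± 2.73 to 10.4 ± 2.80 CPM (-0.84, SE 0.20), Taldo1 (-0.68) and Tkt (-0.41) fell, and Rpia rose (0.90, SE 0.25). Pgm2l1 was 0.03 and -0.05 with the abundance or the density trend removed and was not called, nor was Tkt (-0.16 and -0.19). Ugp2 (-0.15) and Taldo1 (-0.41) lost their calls in the density fit.

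Genes that carry pyruvate and NADH on to the mitochondria were mostly lower. Of 14 genes for pyruvate entry 10 fell and 1 rose, with a median log2 fold change of -0.53. Brp44 (now Mpc2), a subunit of the mitochondrial pyruvate carrier, fell from 42.1 ± 11.4 to 19.6 ± 3.50 CPM (-1.09, SE 0.21), and the pyruvate dehydrogenase genes Pdhb (-0.87, SE 0.13) and Pdha1 (-0.72, SE 0.14) fell too. Pdk1, a kinase that shuts pyruvate dehydrogenase off, was the one that rose (0.62, SE 0.17), with values that overlapped between genotypes. Pdk3 (-0.51) and Pdk4 (-0.85), kinases of the same kind, were among those that fell, also with overlap. Pdk2 (0.18) did not pass, and Pdk3 lost its call in the density fit (-0.38, adjusted p 0.110, edgeR). In the redox shuttle list, whose members regenerate the NAD+ that Gapdh needs, 7 of 8 fell and 1, Slc25a13, rose (0.58). Got1 fell from 83.9 ± 10.6 to 32.7 ± 6.98 CPM (-1.36, SE 0.16), Got2 (-1.04), Slc25a12 (-0.92) and the abundant Mdh1 (-0.77) fell too. With the abundance or the density trend removed, 8 and 5 genes of pyruvate entry and 4 and 3 of the shuttles were called lower, and Pdk1 alone of both lists was higher. Mdh1 was then -0.18 and -0.09 and was not called, Slc25a13 was not called (adjusted p 0.0698 and 0.0927, edgeR), and Pdha1 lost its call in the density fit (-0.29, adjusted p 0.0901, edgeR).

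The mitochondrial genes to which glycolysis is the counterpart were lower as well. In the citric acid cycle 13 of 16 genes fell and none rose (median -0.79), led by Mdh2 (-0.81, SE 0.11), Sdhc (-1.21, SE 0.17) and Sdha (-0.88, SE 0.13). The OXPHOS list holds 46 of the nuclear subunit genes, not all of them. Of these 37 fell and none rose (median -0.88), with Cox6a1 at -1.61, Cox8a at -1.58, Atp5d at -1.55 and the abundant Atp5a1 at -0.67. The medians of the 10 glycolysis and lactate genes, the citric acid cycle and OXPHOS were thus -0.71, -0.79 and -0.88. Without the trend on abundance these medians were -0.42, -0.59 and -0.85, and 6 of 10, 14 of 16 and 33 of 46 genes fell and none rose. Without the trend on counts per kilobase they were -0.30, -0.48 and -0.58, and 3 of 10, 11 of 16 and 25 of 46 genes fell, while 2 OXPHOS genes rose. Atp5a1 was -0.10 and -0.02 with the abundance or the density trend removed and was not called. The difference between these lists was not tested.

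**Figure D5:**
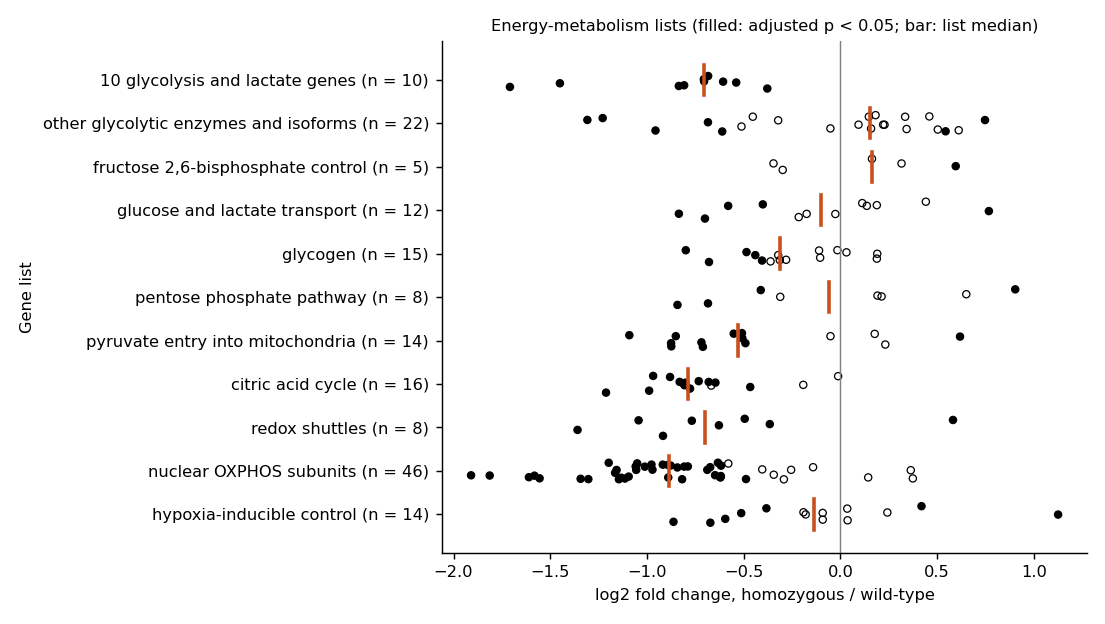
Log2 fold change (homozygous over wild-type) of every tested gene in 11 lists of energy metabolism, 1 point per gene, filled where the adjusted p was under 0.05, with an orange bar at the list median. The 10 glycolysis and lactate genes, the citric acid cycle and OXPHOS have medians of -0.71, -0.79 and -0.88, while the other glycolytic genes spread to both sides around 0.15.

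In the list of hypoxia-inducible control, 5 of 14 genes fell and 2 rose. Hif1a, the regulated HIF subunit, stood at 115 ± 5.44 and 108 ± 11.8 CPM and did not pass (log2 fold change -0.09, SE 0.12). Its known targets went both ways. Bnip3 (-0.67), Car9 (-0.86) and Ndrg1 (-0.51) fell, Adm rose (1.13, SE 0.31), and Vegfa (0.04) did not pass. Adm was rare, with means of 4.72 ± 1.88 CPM in wild-type and 10.0 ± 3.16 CPM in homozygous libraries, and its groups overlapped. Egln2, which encodes an oxygen-sensing hydroxylase that marks HIF for decay, fell (-0.60, SE 0.12), Egln1 (-0.38) fell and Arnt, the constant HIF partner, rose (0.42). With the density trend removed Bnip3 (-0.33), Egln1 (-0.07) and Arnt (0.27) were not called, and Egln1 (-0.23) was not called with the abundance trend removed either.

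Markers of neurons, astrocytes and oligodendrocytes were mostly lower too, though fewer calls remained with the trends removed. Of 10 neuronal markers 8 were lower and 1 higher. Their levels summed to 3030 to 4150 CPM in wild-type against 2089 to 2421 CPM in homozygous libraries. Tubb3 (-1.30), Nefl (-1.03), Slc17a7 (-0.92) and Snap25 (-0.60) were lower. Rbfox3 was the one called higher (0.48), and it was still called higher with the abundance (0.55) or the density (0.47) trend removed. Of 10 astrocyte markers 6 were lower and none higher (3246 to 4015 against 2250 to 2617 CPM), including Gjb6 (-0.82) and Slc1a2 (-0.75). Of 8 oligodendrocyte markers 7 were lower and none higher (1433 to 2288 against 970 to 1198 CPM), with Cldn11 at -1.05, Mog at -0.64 and Mbp at -0.69. Of 8 microglial markers 2 were lower, and they summed to 223 to 276 CPM in wild-type against 222 to 299 CPM. Of 8 endothelial and pericyte markers 3 were lower and 2 higher (299 to 375 against 231 to 272 CPM). Of 7 red blood cell markers 4 were found, but Hbb-b1 and Hbb-b2 had identical counts in all libraries. With that pair counted once, 2 of 3 were lower and 1 higher (44.1 to 79.9 against 41.1 to 80.2 CPM). With the abundance or the density trend removed, 4 and 3 neuronal, 3 and 2 astrocyte and 5 and 3 oligodendrocyte markers were called lower. Snap25 was then 0.04 and 0.03, Slc1a2 0.01 and -0.09, Mbp -0.07 and -0.13 and Slc17a7 -0.28 and -0.27, all without a call, and Mog was not called in the density fit. No marker was at 0 in all libraries, and the part of the cell makeup in the fall of the 10 genes was not tested.

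The 5 genes outside all lists whose profile lay nearest to the average of the members were Tmem151b, Ip6k2, Csnk1g2, Sybu and Cdk5r1. Likeness was the root mean square distance over the 8 libraries of log2 CPM centred on each gene's mean, among genes with at least 10 CPM. Tmem151b, a membrane protein gene, was at a distance of 0.056 with a log2 fold change of -0.88, and Cdk5r1, which encodes the p35 activator of the neuronal kinase Cdk5, at 0.066 with -0.86. Sybu encodes syntabulin, a linker of axonal cargo to kinesin (0.065), Ip6k2 an inositol hexakisphosphate kinase (0.064) and Csnk1g2 a casein kinase (0.065). Of the members Tpi1 was nearest to the average, at 0.086, and Gapdh farthest, at 0.53.

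Wfs1 itself stood at 44.6 to 61.3 CPM in wild-type, against 12.03 to 17.7 CPM in homozygous libraries (log2 fold change -1.81, SE 0.16, adjusted p 2.62e-05, edgeR). Library totals ran from 3250949 to 6747411 counts, and 3 of the 4 homozygous libraries were under every wild-type total. The lowest wild-type total, 3296309 counts, was that of replicate 8, the library in which 9 members were lowest among wild-type. The other wild-type totals were 4873661 to 6747411 counts. The part of depth in the results was not tested. The labels give no batch.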

How the data were processed

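Hippocampal total RNA of 4 wild-type and 4 homozygous mice was freed of ribosomal RNA, and paired 50- and 35-base reads were made with SOLiD 4 chemistry, per the labels' protocols. One table of counts, not normalised and keyed by gene symbol, was deposited by the authors. Its build is mm10, per the submitters' processing notes, and no source used here names the aligner, counter, strand setting or annotation. That the values are counts follows from their being whole numbers with unequal totals.

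The 10 members and all lists were chosen with earlier results of these data known. Genes passing filterByExpr (20478, with 3600 removed) were tested with edgeR 4.0.16 (R 4.3.3): TMM scaling, quasi-likelihood test, no covariate, Benjamini-Hochberg adjustment over all genes, threshold 0.05. With 1 library per animal, p-values measure the spread between libraries, which holds differences of animals, handling and counting error together. Lists are described by counts and medians, without a list test. Ratios of raw counts were compared by exact permutation tests. Named genes are the members, in each other list up to 3 called genes by smallest p and the most abundant gene, and the 5 nearest profiles; some genes are not reported here. Further genes in the text are named after their values were seen. Older symbols were matched through RefSeq, and 97.6% of entries had a GENCODE length. Windows were aligned with bwa 0.7.19.

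Alternatives were RLE size factors, library totals, no filter, 1 CPM in 4 libraries, DESeq2 1.42.0, limma-voom (limma 3.58.1) with quality weights, loess trends (span 0.3) on abundance or on exon count density, a threshold of 0.1, and leaving out each library. On simulated counts of this comparison (20305 genes) the edgeR code made 12 false calls and found 5.97% of 67 genes given a 1.5-fold change. It found 65.7% of 67 given a 2-fold and 93.9% of 66 given a 4-fold change. In that simulation only these genes were changed and no abundance trend was put in. In the data 20.4% of genes were called lower and 20.7% higher, and abundant transcripts fell more often. The shares found and the false calls thus hold for the simulated setting and do not carry over to the data.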

Additional observations from a re-analysis of the deposited data

Results flagged for a closer look

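Of 30 groups of 4 libraries looked at (10 genes and 5 ratios in each genotype), 2 held a library far from the other 3 by Dixon's test, and chance flags about 1 in 20 groups. Gpi1 was 160 CPM in homozygous replicate 17 against 113 to 120 CPM in the other homozygous libraries, and without that library its log2 fold change was -0.82 (adjusted p 0.00302, edgeR). Aldoa was 640 CPM in wild-type replicate 9 against 543 to 557 CPM in the other wild-type libraries, and without it the log2 fold change was -1.39 (adjusted p 0.000412, edgeR).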

How the results depend on the processing

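All 10 genes stayed lower and past the threshold with RLE size factors, both other filters, DESeq2, limma-voom and a threshold of 0.1, and 9 or 10 did when any 1 library was left out, Pfkm being the one lost. The count was 6 with the abundance trend and 3 with the density trend (counts per kilobase) removed, and the median log2 fold change was -0.42 and -0.30 there and -0.50 with library totals. Pfkm changed sign with either trend removed (0.10 and 0.21) and Eno2 with the density trend removed (0.015). Over the 10 other pathway lists 89 of 160 genes were lower, and 58 with the density trend removed. With that trend removed the ratio changes were 1.52 for Eno2 to Eno1, -0.79 for Aldoa to Aldoc and 0.49 for Pfkm to Pfkp, each with an adjusted exact permutation p of 0.0476, and -0.13 for Ldha to Ldhb (adjusted 0.400) and -0.54 for Hk1 to Hk2 (adjusted 0.321). Leaving out 1 library took the Pfkm to Pfkp change from -0.12 to 0.043, and 3 against 4 libraries cannot pass 0.05 there. The cause of these shifts was not tested. No paired analysis was possible because the genotypes share no replicate number. Gapdh, at 5 to 71 reads per library, is limited by counting error.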
